A study of Mus musculus with 12 samples.

Results

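The miR-130 and miR-301 family was represented by 4 of the 650 miRNAs on the array, mmu-miR-130a, mmu-miR-130b, mmu-miR-301a and mmu-miR-301b (the species prefix is left out below), taken as every non-control spot that carries one of these names. Of these, 3 were among the 175 miRNAs that could be tested, and miR-301b was not. The family was selected on its signal after 24 h against 12 h of tunicamycin on these same arrays, where it was higher at 24 h, so that difference is described below and not tested. The cells were mouse embryonic fibroblasts of C57BL/6 background, either lacking ATF6a (ATF6aKO, called KO) or wild type (ATF6aWT, called WT). The groups were KO cells untreated or given 2 ug/mL tunicamycin for 12 or 24 h, and WT cells in the same 3 conditions. Each of the 6 groups held 2 arrays, which the series describes as independent experiments, and the study asked which miRNAs responded to tunicamycin through ATF6a. The labels do not say how many animals or cell lines gave the cells of each genotype.

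ATF6a is a membrane protein of the endoplasmic reticulum that is cleaved during protein folding stress and then acts as a transcription factor, and tunicamycin causes such stress by blocking N-linked glycosylation. A miRNA guides an Argonaute protein to messenger RNAs mainly through its seed, the bases near its 5′ end, so miRNAs with one seed share many targets. In mesenchymal cells the miR-130 and miR-301 family is known for repressing the mRNA of Pparg, the nuclear receptor that drives fat cell formation.

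The mature sequences of the 3 tested members are shown because they share the seed that defines the family and differ towards the 3′ end. They come from RefSeq (GRCm38.p6), where 3 of the 4 member names had a mature entry, and capitals mark bases 2 to 8.
miR-130a: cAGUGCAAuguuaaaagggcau
miR-130b: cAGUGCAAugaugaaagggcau
miR-301a: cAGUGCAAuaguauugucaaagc
The miR-130a sequence lies at chr2:84741116-84741137 on the minus strand, that of miR-130b at chr16:17124071-17124092 on the minus strand and that of miR-301a at chr11:87113054-87113076 on the plus strand. Counted from 1 at the 5′ end, miR-130a and miR-130b differ at 2 of 22 positions, U11A and A13G, with the miR-130a base first. miR-301a matches miR-130a over its first 9 bases and at 12 of 22 positions in all. The seed AGUGCAA was held by 7 of 1738 mature mouse entries (0.403%), of which 4 have probes on the array under their name.

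The members come from 3 places in the genome. The Mir130b and Mir301b hairpins lie 257 bases apart on chromosome 16, within the span of the annotated gene 2610318N02Rik, and the nearest protein-coding genes outside that span are Ppil2 and Sdf2l1, the second of which encodes a lumenal protein of the endoplasmic reticulum. Mir301, the gene of miR-301a, lies within Ska2, a gene of the kinetochore machinery. Mir130a lies between Ypel4 and Serping1. The array uses older names without an arm, which were matched to the 3p products, and the files hold no probe sequences, so binding of one member to the probes of another was not tested.

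A second set is shown because its seed overlaps that of the family by an offset of 1 base: bases 3 to 8 are AGUGCA, the first 6 bases of the family seed. The capitals again mark bases 2 to 8.
miR-148a: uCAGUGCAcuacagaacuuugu
miR-152: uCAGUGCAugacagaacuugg
These lie at chr6:51269829-51269850 on the minus strand and at chr11:96850439-96850459 on the plus strand.

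Between 85 and 171 miRNAs were well above background per array, a flag of the scanner software counted here where more than 50% of a probe's spots carry it. The signal used for scaling ranged over 177 to 630 units. Slide 1 held the 4 untreated arrays and slide 2 the 8 tunicamycin arrays, which means that the slide and the treatment cannot be told apart, and KO and WT arrays lay in different rows of each slide, so genotype and row cannot be told apart either. Replicate 1 and replicate 2 of the treated groups were scanned in runs 3 and 4, and run 4 had the fewer detected miRNAs, 85 to 144 per array against 129 to 171 in run 3. Of 8 fibroblast or mesenchymal marker miRNAs, 5 to 7 were well above background on each array (miR-145 on none), with a summed scaled signal of 15.6 to 37.6. The listed miRNAs of liver, neuron, blood, epithelium and endothelium were well above background on none, and 1 of 4 muscle and 1 of 5 embryonic stem cell miRNAs were so on some arrays. ATF6a messenger RNA is not probed on a miRNA array, and the genotype labels were not checked.

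Levels below are log2 of the signal after scaling each array, and levels of different miRNAs are not set against each other, since probes differ in brightness. Fewer cells with a miRNA and less of it per cell cannot be told apart in bulk RNA. The lowest level used is a signal floor at -5.02. miR-130a was well above background with both probes on all 12 arrays. Its level in KO cells was -0.34 and -0.28 untreated, -0.74 and -1.29 at 12 h, and -0.46 and -0.86 at 24 h. Its level in WT cells was 0.26 and 0.23 untreated, -0.91 and -0.85 at 12 h, and -0.41 and -0.58 at 24 h. The untreated WT arrays stood above every other array and the untreated KO arrays came next. The tunicamycin groups followed in the order WT 24 h, KO 24 h, WT 12 h and KO 12 h by their means, each overlapping the next.

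miR-301a had 1 probe well above background on all arrays, and its dimmer probe missed that flag on 3 of the 4 arrays of run 4. In KO cells its level was -2.51 and -2.32 untreated, -2.44 and -2.81 at 12 h, and -1.87 and -1.96 at 24 h. In WT cells it was -2.07 and -2.14 untreated, -3.09 and -2.79 at 12 h, and -2.32 and -2.06 at 24 h. The KO 24 h arrays were the highest of all, and the WT 12 h group had the lowest mean while its range overlapped that of KO at 12 h. Untreated WT and WT 24 h overlapped, as did untreated KO and KO 12 h.

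miR-130b was dim. Its level in KO cells was -4.25 and -4.09 untreated, -3.73 and -4.45 at 12 h, and -3.95 and -4.01 at 24 h. Its level in WT cells was -4.33 and -4.43 untreated, -5.016 and -5.003 at 12 h, and -4.62 and -4.54 at 24 h. The 3 KO groups had the highest means, and KO 12 h overlapped both other KO groups, with its replicate 2 below the untreated WT arrays. The WT 12 h arrays lay at the floor or next to it. Neither probe was well above background on any run 4 array, so each tunicamycin group had miR-130b measured on 1 of its 2 arrays.

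**Figure D1:**
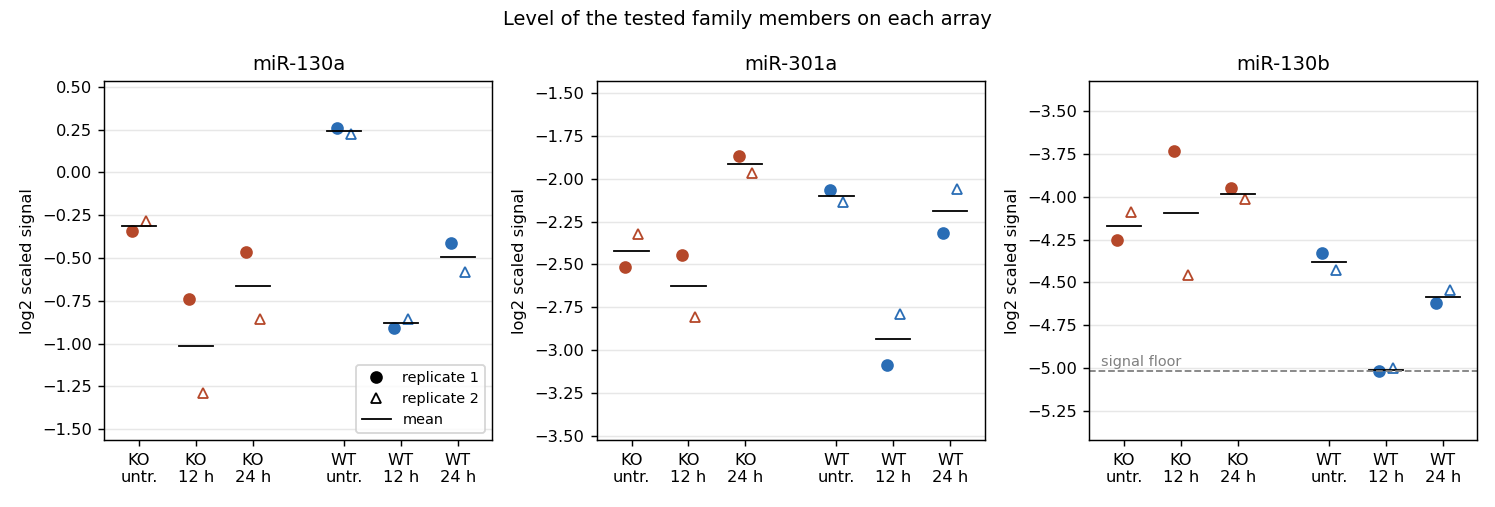
Level of miR-130a, miR-301a and miR-130b on each of the 12 arrays as log2 of the scaled signal, with KO groups (red) left of WT groups (blue), filled circles for replicate 1, open triangles for replicate 2 and lines for the means. Untreated WT arrays top the miR-130a panel at 0.26 and 0.23, KO 24 h arrays top the miR-301a panel at -1.87 and -1.96, and both WT 12 h arrays of miR-130b sit at the floor of -5.02 or next to it; panels span the same range but start at different levels.

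In WT cells 2 of the 3 tested members, miR-130a and miR-301a, were called lower after tunicamycin, taking 12 and 24 h together against untreated cells. miR-130a averaged -0.69 with tunicamycin and 0.24 untreated, a difference of -0.93 ± 0.17 (SE, 4 against 2 arrays), that is 1.91-fold lower (limma, adjusted p = 0.0029). miR-301a averaged -2.56 with tunicamycin and -2.10 untreated, a difference of -0.46 ± 0.14 (adjusted p = 0.0297 by limma). miR-130b averaged -4.80 with tunicamycin and -4.38 untreated, a difference of -0.42 ± 0.18 that missed the threshold of 0.05 (limma, adjusted p = 0.103). Its dimmer probe stood at the floor on every WT array, and the brighter probe alone differed by -0.84 (limma, adjusted p = 0.0188). The miR-130b fall also passed in a fit of the WT groups alone (limma, adjusted p = 0.0044). With the normexp background correction, whose offset of 50 units is above the miR-130b signals in WT cells, it was 0.15 (limma, adjusted p = 0.822). In 6 of 9 other settings it stayed below 0 and short of the threshold. Thus 2 of 3 tested members were called lower and none higher in the reported fit, against 38.3% of all 175 tested miRNAs called lower. The members' median difference was -0.46 and that of all tested miRNAs -0.20.

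All 4 treated WT arrays lay below both untreated ones for miR-130a and for miR-130b, 2 of 3 members, against 46.9% of all miRNAs, with miR-130b not well above background on the 2 treated WT arrays of run 4. For miR-301a the WT 24 h array of replicate 2 reached the untreated range. Both probes of miR-130a moved alike, by -0.89 and -0.97, and those of miR-301a by -0.42 and -0.51. Without any single array the miR-130a difference stayed between -0.97 and -0.89. Its call was lost by limma with quantile normalisation (-0.93, adjusted p = 0.168) and in the authors' deposited table, unscaled (-1.15, adjusted p = 0.447). Scaled on all probes it was -1.20 with an SE of 1.04 (limma, adjusted p = 0.836). That scaling takes the 75th percentile of 1857 probes, of which 306 passed the filter, so it rests on dim probes and cannot show whether the fall holds. The miR-301a call was lost without 1 array in 4 cases: it was -0.43 without untreated replicate 1 (adjusted p = 0.16), -0.50 without untreated replicate 2 (0.0967), -0.39 without 12 h replicate 1 (0.0732) and -0.40 without 24 h replicate 1 (0.0787), all by limma, and it held in 2 of 11 other settings.

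In KO cells no member passed the test for tunicamycin against untreated by limma, and 1 of 3 had an unadjusted p under 0.05. Of all tested miRNAs, 16.6% passed in either direction. miR-130a averaged -0.84 with tunicamycin and -0.31 untreated, a difference of -0.52 ± 0.17 (limma, adjusted p = 0.0762), and its treated arrays all lay below the untreated ones, as did those of 30.3% of miRNAs. Without the KO 12 h array of replicate 1 that difference was -0.66 with an adjusted p of 0.00968 by limma. miR-301a differed by 0.15 ± 0.14 (adjusted p = 0.566) and miR-130b by 0.14 ± 0.18 (adjusted p = 0.689) in the same limma fit. Without the KO 12 h array of replicate 2, miR-130b was 0.32 higher with tunicamycin (limma, adjusted p = 0.0241), and without replicate 1 of that group it was -0.05.

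The response of KO cells minus that of WT cells was above 0 for each tested member, and none passed the test by limma. It was 0.61 ± 0.20 for miR-301a (adjusted p = 0.0884), 0.55 ± 0.25 for miR-130b (adjusted p = 0.204) and 0.41 ± 0.24 for miR-130a (adjusted p = 0.309), with 1 of 3 at an unadjusted p under 0.05. Across all miRNAs 13.1% passed in either direction. The members' median was 0.55, and that of all tested miRNAs 0.20. Leaving out a KO 12 h array brought 2 of them past the threshold: without replicate 2, miR-130b was 0.73 (limma, adjusted p = 0.00311) and miR-301a 0.70 (adjusted p = 0.0295), and without replicate 1 miR-130b was 0.37 (adjusted p = 0.0351). The responses of the genotypes are thus not shown to differ for any member with all arrays in the fit.

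**Figure D2:**
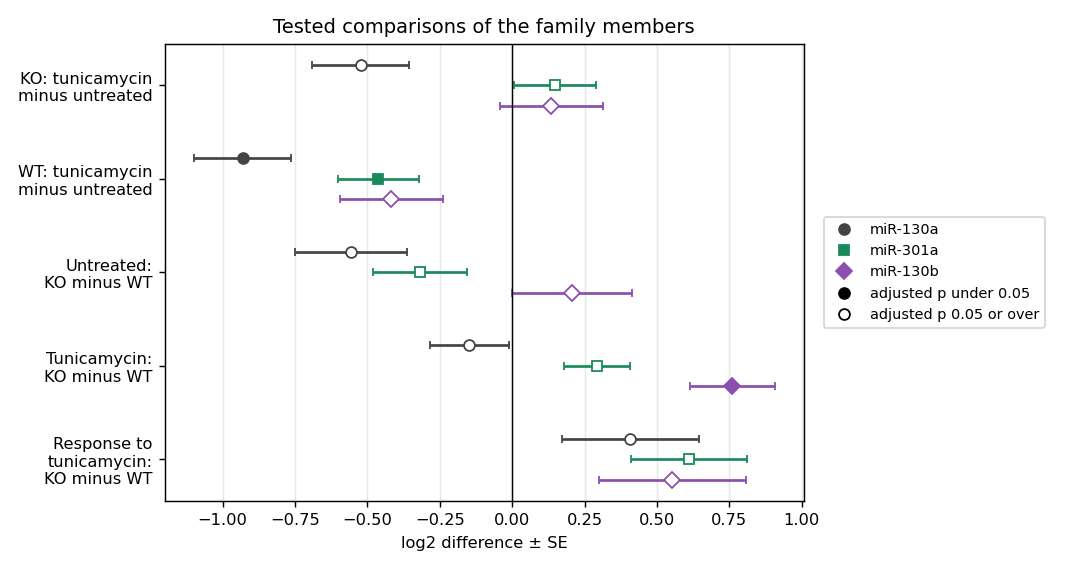
Log2 differences with their standard errors for the 5 tested comparisons of miR-130a (circles), miR-301a (squares) and miR-130b (diamonds), filled where the limma adjusted p was under 0.05. Filled symbols stand at -0.93 and -0.46 for miR-130a and miR-301a in WT cells and at 0.76 for miR-130b between tunicamycin-treated KO and WT cells.

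Under tunicamycin miR-130b was higher in KO than in WT cells. It averaged -4.04 in KO and -4.80 in WT cells over both times, a difference of 0.76 ± 0.15 (SE, 4 arrays each), that is 1.69-fold (limma, adjusted p = 0.0118, and 0.0191 with the scanning run as a block). It was the 1 of 3 tested members to pass, against 6.29% of all miRNAs that were called higher in KO cells. In either direction 35 of the 175 miRNAs were called. Of the 4 arrays of each genotype, the 2 of run 4 had neither probe well above background, and WT 12 h replicate 1 stood at the floor with both, so the fold rests in part on values that are only bounds. The difference was 0.98 within run 3, where its brighter probe was well above background, and 0.54 within run 4, where neither probe was. The call held without any single array (adjusted p of 0.000135 to 0.0416 by limma).

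The unscaled processed signal of its brighter probe shows the same order. In KO cells given tunicamycin it was 58.2 and 38.4 at 12 h and 57.3 and 27.9 at 24 h, against 17.4 and 10.6 at 12 h and 20.3 and 10.5 at 24 h in WT cells. In run 3, where this probe was well above background on all 4 arrays, both KO arrays exceeded both WT arrays. In untreated cells it was 56.1 and 46.0 in KO and 29.9 and 29.1 in WT cells. The dimmer probe gave 22.6, 6.06, 17.2 and 12.0 in treated KO cells and 4.30, 3.41, 5.12 and 1.01 in treated WT cells, and on no WT array was it well above background. It passed the probe filter only through the untreated KO arrays, so its values are no separate support for a higher level in KO cells. It stood at the floor on all 6 WT arrays, which narrows their spread, so the difference averaged over both probes is in part a bound. The brighter probe alone differed by 1.22. That value counts the run 4 arrays, where the probe was not well above background, and WT 12 h replicate 1 at the floor. The call did not hold for quantile-normalised values, where the difference was 0.52 (limma, adjusted p = 0.83). It also failed by limma with no filter on dim probes (adjusted p = 0.0708) and in a fit of the treated groups alone (adjusted p = 0.0705). With all probes as the scaling base, which lies among dim probes, the difference was 0.52 and short of the threshold. With the normexp background correction it was -0.03 (limma, adjusted p = 0.953), against a median of -0.20 over all miRNAs. The offset of 50 units in that correction is of the size of the miR-130b signals or larger, so it cannot show whether the difference holds.

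miR-130a and miR-301a were not called between the genotypes under tunicamycin. miR-130a averaged -0.84 in KO and -0.69 in WT cells, a difference of -0.15 ± 0.14 (limma, adjusted p = 0.569). miR-301a averaged -2.27 in KO and -2.56 in WT cells, a difference of 0.29 ± 0.12 (limma, adjusted p = 0.147), made up of 0.55 in run 3 and 0.04 in run 4. Without the KO 12 h array of replicate 2 the miR-301a difference was 0.38 (limma, adjusted p = 0.0432).

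In untreated cells miR-130a was lower in KO, at -0.34 and -0.28 against 0.26 and 0.23 in WT cells. The difference of -0.56 ± 0.19 did not pass in the fit without a block (limma, adjusted p = 0.0763) and passed with the scanning run as a block (adjusted p = 0.0404). It was -0.60 in run 1 and -0.51 in run 2. It also passed without either KO 12 h array (adjusted p = 0.0199 in each case by limma), arrays that enter only through the shared spread, and in a fit of the untreated groups alone (adjusted p = 0.00346). miR-301a averaged -2.42 in KO and -2.10 in WT cells, a difference of -0.32 ± 0.16 (limma, adjusted p = 0.22). miR-130b averaged -4.17 in KO and -4.38 in WT cells, a difference of 0.21 ± 0.21 (limma, adjusted p = 0.57). In the limma fit of all 12 arrays without a block no member passed, 1 of 3 had an unadjusted p under 0.05, and 28.0% of all miRNAs passed in either direction.

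The time comparison by which the family was chosen is given without a test. In KO cells miR-301a averaged -1.92 at 24 h and -2.63 at 12 h, a difference of 0.71 ± 0.16 (SE). In WT cells miR-301a averaged -2.19 at 24 h and -2.94 at 12 h, a difference of 0.75 ± 0.16. The 24 h arrays of each genotype lay above its 12 h arrays. miR-130a differed by 0.35 in KO and 0.38 in WT cells, and miR-130b by 0.11 in KO and 0.43 in WT cells. The 24 h and 12 h arrays did not overlap for 1 of 3 members in KO cells, against 16.0% of all miRNAs higher at 24 h, and for 3 of 3 in WT cells, against 30.3%, with miR-130b not well above background on the run 4 array of each time. By the test, 2.29% of all miRNAs were called higher at 24 h in KO and 1.14% in WT cells.

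Within a run, miR-301a was higher at 24 h by 0.58 in run 3 and 0.84 in run 4 in KO cells, and by 0.77 and 0.73 in WT cells. miR-130a was higher by 0.27 and 0.43 in KO and by 0.50 and 0.27 in WT cells. miR-130b in run 3 was -0.22 in KO cells and 0.39 in WT cells, where the 12 h array stood at the floor with both probes. In run 4 it was 0.44 in KO and 0.46 in WT cells. Neither probe was well above background on those arrays, so the run 4 values are not measured differences. The median of all tested miRNAs lay between 0 and 0.07 in these 4 pairs of arrays.

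**Figure D3:**
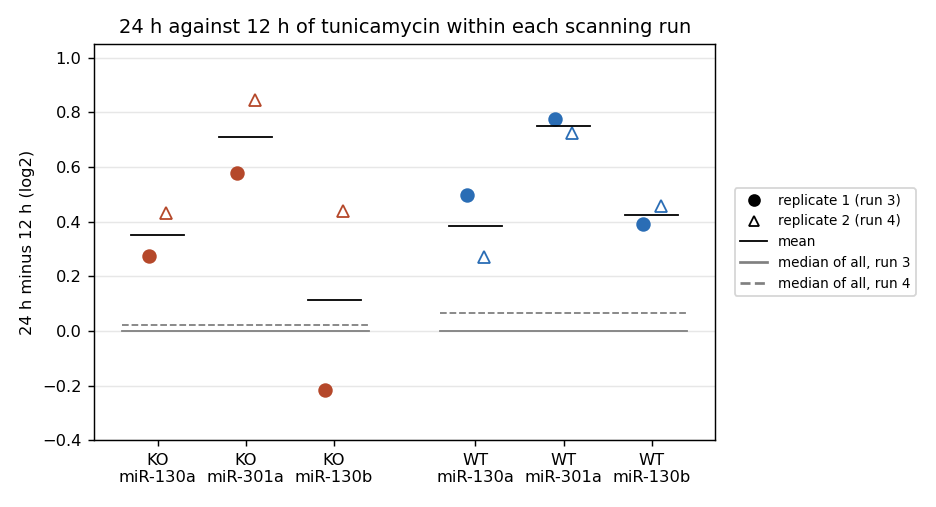
Log2 difference of 24 h minus 12 h of tunicamycin for each tested member within scanning run 3 (filled circles) and run 4 (open triangles), KO left and WT right, with means as black lines and the median of all tested miRNAs as grey lines. miR-301a lies between 0.58 and 0.84 in every pair, and miR-130b in KO cells has 1 value below 0. The miR-130b triangles come from arrays where neither probe was well above background, and its WT circle rests on a 12 h array at the floor.

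The time difference depended on scaling. The unscaled processed signal of the brighter miR-301a probe was 265 and 150 at 24 h and 201 and 155 at 12 h in KO cells, and 156 and 81.3 at 24 h and 156 and 93.8 at 12 h in WT cells. On the replicate 1 arrays the dimmer probe gave 66.5 at 24 h and 38.8 at 12 h in KO cells, and 37.4 at 24 h and 28.4 at 12 h in WT cells. Before scaling, replicate 1 was higher at 24 h with both probes in KO cells and with the dimmer probe in WT cells, and replicate 2 was lower at 24 h with both probes in both genotypes. The scaling signals of the same arrays were 484 and 295 at 24 h and 481 and 571 at 12 h in KO cells, and 380 and 177 at 24 h and 567 and 337 at 12 h in WT cells. In the unscaled values of the authors' deposited table miR-301a differed by 0.37 in KO and -0.05 in WT cells while the median over 81 miRNAs differed by -0.51 and -0.57. Relative to the median of all miRNAs the miR-301a difference was above 0 in each of 13 settings, at 0.33 to 0.95 in KO and 0.24 to 0.92 in WT cells. miR-130a was likewise above the median in each of 13 settings, by 0.16 to 0.80 in KO and 0.04 to 0.68 in WT cells. These settings reprocess the same arrays on which the family was selected, so their number adds no support. Those that changed only the block or the groups in the fit gave the reported difference again. The 2 probes of miR-130a differed in size, by 0.12 and 0.59 in KO and by 0.18 and 0.59 in WT cells.

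Ratios within an array, which no scaling between arrays changes, were computed after the values were seen and are given without a test. The log2 ratio of miR-301a to miR-130a in KO cells was -2.17 and -2.04 untreated, -1.71 and -1.52 at 12 h, and -1.40 and -1.11 at 24 h. In WT cells it was -2.32 and -2.36 untreated, -2.18 and -1.93 at 12 h, and -1.90 and -1.48 at 24 h. On replicate 2 of KO 12 h, WT 12 h and WT 24 h the dimmer miR-301a probe was not well above background, so these averaged ratios are only in part measured. As averages over the probes, the groups of each genotype did not overlap. By single probes they did: 24 h and 12 h overlapped in both genotypes against the brighter miR-130a probe, and 12 h overlapped untreated in both genotypes for the dimmer miR-301a probe against the dimmer miR-130a probe. From 12 to 24 h the size of this step depended on the miR-130a probe: against the dimmer one it was 0.53 and 0.66 in KO and 0.47 and 0.67 in WT cells, and against the brighter one 0.06 and 0.19 in KO and 0.06 and 0.26 in WT cells, for the brighter and the dimmer miR-301a probe in turn. The ratio with tunicamycin minus untreated was 0.58 to 0.76 in KO and 0.38 to 0.56 in WT cells over the 4 probe pairs. In WT cells the scaled levels with tunicamycin minus untreated differed by -0.93 for miR-130a and by -0.46 for miR-301a. Which of them moved the ratio was not tested.

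The log2 ratio of the brighter miR-130b probe to miR-130a was computed likewise. On the replicate 2 arrays of the tunicamycin groups, all of run 4, that probe was not well above background, so their ratios are not measured levels. In KO cells it was -3.15 and -3.06 untreated, -2.31 and -2.60 at 12 h, and -2.61 and -2.55 at 24 h. In WT cells it was -3.90 and -4.07 untreated, -4.11 and -4.14 at 12 h, and -3.82 and -3.49 at 24 h. On the other 8 arrays, the 4 of KO cells lay above the 4 of WT cells. The mean differed between KO and WT cells by 0.88 untreated, and by 1.37 with tunicamycin when the run 4 arrays are counted. The untreated difference holds a miR-130a difference of -0.56 in the denominator, beside 0.33 for the brighter miR-130b probe.

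**Figure D4:**
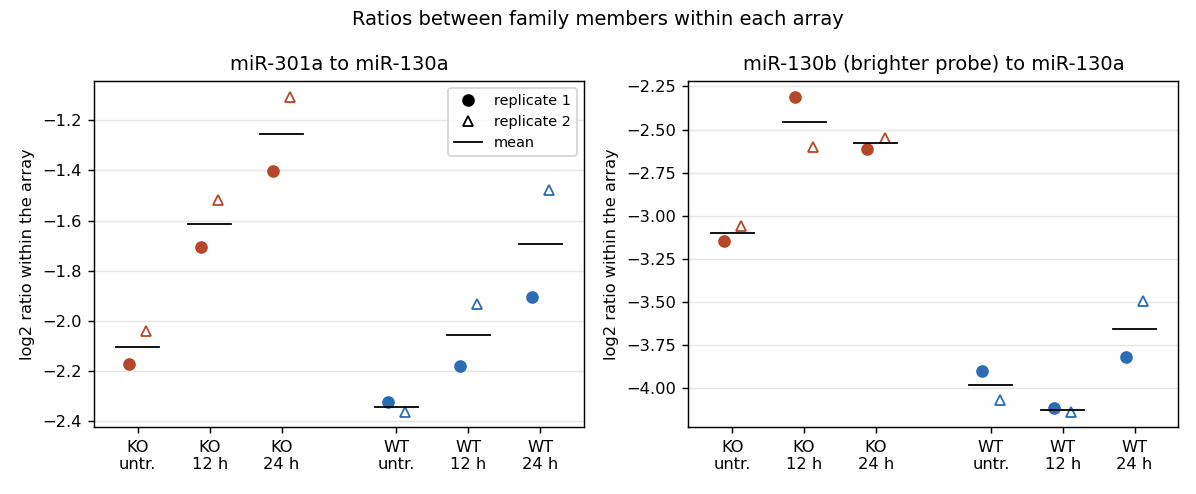
Log2 ratio of miR-301a (left) and of the brighter miR-130b probe (right) to miR-130a within each array, from unscaled processed signals, with KO groups left of WT groups, circles for replicate 1, triangles for replicate 2 and lines for the means. The miR-301a ratio is highest at 24 h, at -1.40 and -1.11 in KO and -1.90 and -1.48 in WT cells. In the miR-130b panel the triangles of the tunicamycin groups come from arrays where the probe was not well above background. In the miR-301a panel the triangles of KO 12 h, WT 12 h and WT 24 h include a dimmer probe that was not well above background.

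miR-301b, the neighbour of miR-130b on chromosome 16, was not measured. It has 4 probes of 5 spots each, none well above background on any array. The brightest probe gave processed signals of 7.56 and 8.43 untreated, 9.26 and -0.78 at 12 h, and 11.0 and 9.80 at 24 h in KO cells, and 4.38 and 6.85 untreated, 3.68 and 0.40 at 12 h, and -0.35 and 0.24 at 24 h in WT cells. At most 2 of its 5 spots were flagged, on 1 untreated and 1 24 h KO array. The highest value of the other 3 probes on any array was 5.72. No level or fold is given for it. miR-130b*, the other strand of the Mir130b hairpin, had signals of at most 3.82 and was well above background on no array.

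**Figure D5:**
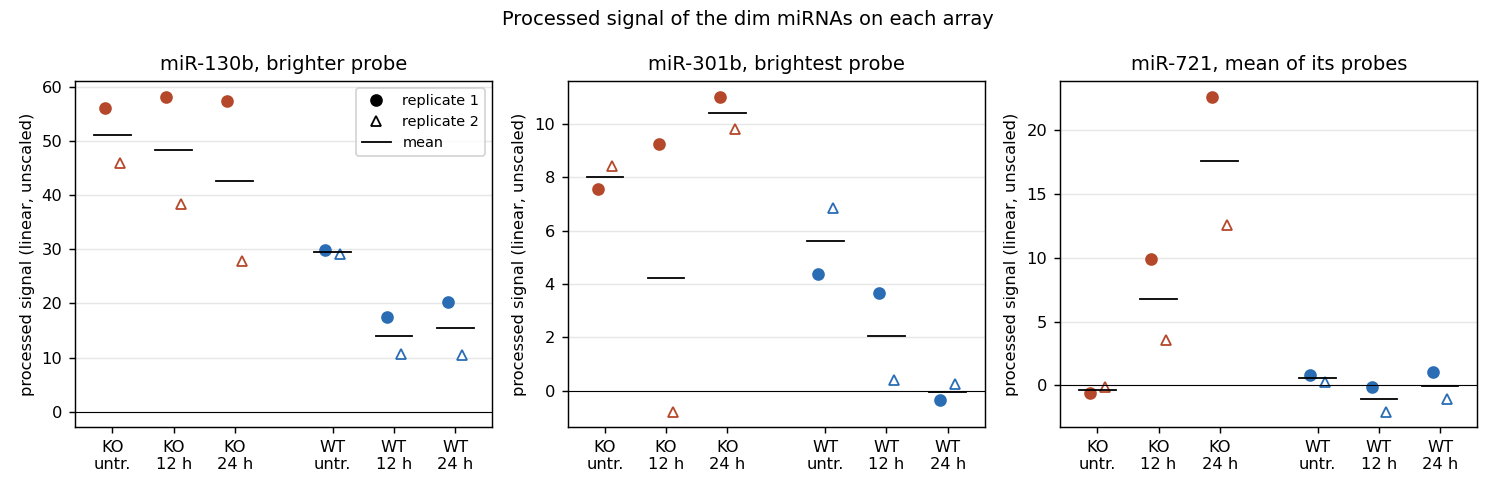
Unscaled processed signal of the brighter miR-130b probe, the brightest miR-301b probe and the mean of the miR-721 probes on each array, with KO groups left of WT groups, circles for replicate 1, triangles for replicate 2 and lines for the means; the axes differ. Only miR-130b was tested; miR-301b was well above background on no array and miR-721 on 1, KO 24 h replicate 1.

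The authors' deposited table holds log2 of a summed signal per miRNA that the scanner software computes, and for the dimmer member of each pair that sum can include its paralog. On 4 of the 9 arrays where miR-130b was detected by the software, its summed signal equalled that of miR-130a plus 1 of its own probes, within 0.05 units. On the KO 24 h array of replicate 2 it was 244, against 226 for miR-130a plus 18.5, and on the untreated WT array of replicate 1 it was 621, against 601 plus 19.4. On the untreated WT array of replicate 2, where the sum held its own probes alone, it was 26.7. The deposited log2 values of the untreated WT pair were accordingly 9.28 and 4.74, although the 2 arrays had the like processed signals given above. miR-301b had the same form on both arrays that list it, 228 and 160, with miR-301a at 224 and 157. Among all 2034 detected values, 641 (31.5%) exceeded the sum of the miRNA's own probes by more than 0.05. Values of miR-130b and miR-301b in that table therefore do not measure these miRNAs alone on those arrays.

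Of the other mature entries with the family seed, miR-721 has probes and did not reach the tested set, and miR-130c, miR-6341 and miR-6389 have none under their names. miR-454, which was also looked for, is not on the array. In the overlapping-seed set, 2 of 3 were tested and miR-148b was not. miR-148a averaged -4.38 with tunicamycin and -3.16 untreated in WT cells, a difference of -1.22 ± 0.10 (limma, adjusted p = 9.6e-05). In KO cells it averaged -4.24 with tunicamycin and -4.35 untreated, a difference of 0.11 ± 0.10 (limma, adjusted p = 0.547), and its response differed between KO and WT cells by 1.33 ± 0.14 (adjusted p = 0.000837). In untreated cells it averaged -4.35 in KO and -3.16 in WT, a difference of -1.19 ± 0.12 (limma, adjusted p = 0.00039). These miR-148a calls were lost with quantile normalisation, where the WT fall was -1.13 (limma, adjusted p = 0.0735), the untreated difference was -0.89 (adjusted p = 0.327) and the response difference had an adjusted p of 0.503. They were also lost with scaling on all probes, normexp and the summed signal, all in the same direction, and the response call was lost with the lower floor (limma, adjusted p = 0.104). miR-152 averaged -4.88 in untreated KO and -4.06 in untreated WT cells, a difference of -0.82 ± 0.06 (limma, adjusted p = 8.33e-05), a call lost with scaling on all probes (adjusted p = 0.951), quantile normalisation (0.151), normexp (0.84), the summed signal (0.999) and the lower floor (0.0564), all in the same direction. Its treated arrays lay near the floor, at -5.016 to -4.999 in KO and -4.88 to -4.79 in WT cells.

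The miRNAs most like each member across the 12 arrays were found by Pearson's r over miRNAs detected on at least 8 arrays, a description over arrays that share slides and runs. For miR-130a they were miR-136 (0.94), miR-410 (0.93) and miR-379 (0.92). For miR-301a they were miR-148a (0.83), miR-193b (0.81) and miR-30e (0.80), and for miR-130b miR-15b (0.91), miR-29a (0.88) and let-7g (0.87). None of the nearest 3 was another family member: r was 0.55 between miR-130a and miR-301a, 0.61 between miR-130b and miR-301a, and 0.18 between miR-130a and miR-130b. Each r of miR-130b includes the run 4 arrays, where neither of its probes was well above background, and WT 12 h values at the floor or next to it. miR-148a averaged -4.35, -4.73 and -3.74 in KO cells untreated, at 12 h and at 24 h, and -3.16, -4.78 and -3.98 in WT cells in the same order.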

How the data were processed

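Total RNA was hybridised to 12 single-colour miRNA arrays after Cy3 labelling of 100 ng, per the labels' protocols. The authors deposited linear spot intensities, which the submitters' processing notes credit to Agilent Feature Extraction 10.7.1.1, background-subtracted and unscaled between arrays, per the file headers, and a series table of log2 values, unscaled and uncentred, each equal to log2 of the summed signal.

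Control and outlier spots were left out, spots averaged per probe and arrays scaled to the 75th percentile of the 87 probes that every array measured well above background. Scaled signals were raised to a floor of 0.0309 (the lowest such signal per array, median taken) before log2. Probes well above background on both arrays of any group, 306 in all, were averaged per miRNA. limma 3.58.1 (R 4.3.3; lmFit, eBayes, 6 residual degrees of freedom) was fitted to all 12 arrays and adjusted by Benjamini-Hochberg over 175 miRNAs. The fit was also tried on simulated data whose noise was independent between arrays, without shared scanning runs or the floor. That trial does not show how the p-values behave where runs are shared or values lie at the floor. Groups came from the labels. The number of arrays limits precision, and where replicates share a culture p-values measure technical spread.

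The members, lists and rule for named miRNAs (members, other products of their hairpins, same and offset seeds, 3 nearest miRNAs each) were chosen with earlier results of these data known. The normexp alternative used the median spot signal and an offset of 50 units, which is of the size of the signals of dim probes or larger. Scaling on all probes used the 75th percentile of 1857 probes, of which 306 passed the filter, so its base lay among dim probes. A call lost with that scaling, or with normexp for a dim miRNA, cannot decide whether the difference holds. Replicate numbers did not pair samples across slides: deviations of same-numbered arrays correlated at 0.744 to 0.941 within a slide and at -0.661 to -0.451 across slides. The reported fit had no block. The scanning run within each slide, read from the file headers, was added as a block in an alternative fit of the genotype and time comparisons only. Tests of tunicamycin against untreated and of the response difference were not fitted with it, and they treat arrays of 1 run as independent. Other settings changed the scaling, the background correction, the filter, the floor, the choice of probe or the block, or omitted 1 array.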

Additional observations from a re-analysis of the deposited data

Results flagged for a closer look

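miR-721, which carries the family seed and is outside the tested set, gave signal in treated KO cells above the level of every untreated array. The mean processed signal of its 4 probes on the KO 24 h arrays was 17.6, from 22.6 on replicate 1 and 12.6 on replicate 2. At 12 h the KO arrays had 9.91 and 3.59, and the untreated KO arrays had -0.57 and -0.15. The 6 WT arrays lay between -2.07 and 1.07. All 20 of its spots were well above background on KO 24 h replicate 1, and 0 on every other array. The difference was not tested, and the 2 arrays of that group differ in scanning run.
miR-721: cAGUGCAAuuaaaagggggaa
This sequence, with bases 2 to 8 in capitals, lies at chr5:136375777-136375797 on the minus strand (RefSeq, GRCm38.p6).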

How the results depend on the processing

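Over all miRNAs the calls for tunicamycin in WT cells, 79 in the fit reported, became 0 when arrays were scaled on all probes, 12 with quantile normalisation, 9 with normexp, 36 with the summed signal, 0 with the deposited table and 20 with a stricter filter (probes above background on every array). For tunicamycin in KO cells, 29 calls became 2, 10, 6, 13, 1 and 7 in the same order, 18 with no filter on dim probes and 12 in a fit of the compared groups alone. For KO minus WT untreated, 49 became 0, 9, 1, 8, 0 and 0, then 23 with a lower floor (-7.02 in place of -5.02) and 95 in a fit of the compared groups alone. For KO minus WT with tunicamycin, 35 became 0, 2, 0, 0, 0 and 4, then 16 with no filter and 15 in a fit of the compared groups alone. For the difference of the responses, 23 became 0, 2, 0, 2, 0 and 0, then 13 with no filter and 4 with a lower floor. Where a count was 0 by limma, 0 to 18 miRNAs had an unadjusted p under 0.05. Without 1 array the counts were 14 to 62 for tunicamycin in KO cells (62 without KO 12 h replicate 1), 23 to 51 for KO minus WT with tunicamycin (23 without KO 24 h replicate 2) and 13 to 47 for the difference of the responses (47 without KO 12 h replicate 2). Scaling also moved the median of all miRNAs: for tunicamycin in KO cells it was -0.67 scaled on all probes and -0.0326 in the fit reported, and for KO minus WT untreated it was 0.48 over the 81 miRNAs of the unscaled deposited table and -0.13 in the fit reported.

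Of the members, 2 passed for tunicamycin in WT cells, 0 when scaled on all probes, with quantile normalisation or the deposited table, and 1 with normexp, the summed signal, no filter, the stricter filter or a lower floor, with 1 to 3 when 1 array was left out. The 1 member called for KO minus WT with tunicamycin, miR-130b, gave a count of 0 in all of the settings named so far except a lower floor, with 1 to 2 without 1 array. miR-130b did not enter under the stricter filter or the complete deposited rows. For KO minus WT untreated, 0 became 1 with the run as a block and in a fit of the compared groups alone, and 0 to 1 without 1 array. For tunicamycin in KO cells it was 0 to 1 without 1 array, and for the difference of the responses 0 to 2.

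Direction turned in these cases, none past the threshold. With normexp miR-130b was 0.15 for tunicamycin in WT cells, -0.0708 for KO minus WT untreated and -0.0326 with tunicamycin. The medians of all miRNAs were 0.12, -0.16 and -0.20 in the same order, and the offset of 50 units limits what this setting can show for miR-130b. With the summed signal, which holds miR-130a on some arrays, miR-130b was -2.07 and -0.26 in those genotype comparisons. For tunicamycin in KO cells miR-130b was -0.37 (scaled on all probes), -0.17 (quantile) and -0.0223 (lower floor), and -0.0455 to 0.32 without 1 array, while miR-301a was -0.79 (scaled on all probes), -0.28 (quantile), -0.21 (summed signal) and -0.19 (deposited table). For KO minus WT untreated miR-301a was 0.13 (scaled on all probes) and 0.15 (deposited table), and with tunicamycin miR-130a was 0.26 (deposited table). Scaled on all probes, the response differences were -0.40 (miR-130a), -0.0467 (miR-130b) and -0.13 (miR-301a).

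For 24 h minus 12 h the members' median in WT cells, 0.43, was 1.20 (scaled on all probes), 0.67 (quantile), 0.34 (normexp), 0.36 (summed signal), -0.18 (deposited table), 0.52 (stricter filter), 0.53 (lower floor), 0.65 (brightest probe), and 0.50 and 0.46 within replicates 1 and 2, with 0.42 to 0.47 without 1 array. In KO cells, 0.35 became 1.00 (scaled on all probes), 0.65 (quantile), 0.89 (summed signal), 0.14 (deposited table), 0.50 (stricter filter), 0.50 (lower floor) and 0.59 (brightest probe), with 0.0762 to 0.63 without 1 array (0.0762 without 12 h replicate 2). In the deposited table miR-130a was -0.31 in WT and -0.0781 in KO cells and miR-301a -0.0541 in WT cells, and miR-130b in KO cells was -0.22 within replicate 1 and -0.25 to 0.47 without 1 array. Where no other cause is named, the cause was not tested.

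The replicate block left every difference and every member's side of the threshold as reported: with it miR-130a was -0.56 for KO minus WT untreated (adjusted p = 0.0503 by limma). The dim probes of miR-130b and miR-301b limit what these arrays can show.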
